A study of Mus musculus with 8 samples.

Results

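Krueppel-like factors are transcription factors that bind CACCC and GC-rich DNA through 3 zinc fingers at the end of the protein, and their other parts recruit either activators or corepressors. In the lung they are known for vessel quiescence (Klf2 and Klf4), epithelial growth and maturation (Klf5) and early responses to injury and to growth factors (Klf6, Klf10 and Klf11). The values given here are those of 10 members of this family: Klf2, Klf3, Klf4, Klf5, Klf6, Klf7, Klf10, Klf11, Klf12 and Klf13. They were taken by gene name from the 39290 gene names of the deposited table, in which each stood on 1 row and which held 17 Krueppel-like factor genes in all. Of the 7 others, Klf9 and Klf15 are known targets of the glucocorticoid receptor, and the choice of the 10 set them apart for that reason. The list was drawn up with the levels of these same libraries known, so the difference of the 10 genes between the groups is given as a description and supports nothing.

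The data were RNA sequencing values (FPKM, fragments scaled by transcript length and library depth) of 8 mouse libraries, 4 titled high dose and 4 titled model. The high dose group belongs to a study of Platycodin D, a saponin of the Platycodon root, given to mice with a model of idiopathic pulmonary fibrosis, a scarring lung disease, and the model group carries the disease model alone as far as its title says. The dose, the agent that made the fibrosis, the strain, the age and the sex of the animals are not given in the sources used here, and no untreated group was analysed here. The labels name lung tissue together with MLF, a mouse lung fibroblast line. Transcripts of alveolar epithelium, which such a line would not make, were abundant in every library, with a summed level of 7 markers between 14068 and 20852 FPKM in the high dose libraries and between 10699 and 16105 FPKM in the model libraries. The library codes begin with letters that could be read as the reverse of the titles. Groups here follow the titles, so a swap of the 2 titles would turn each direction given here.

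The FPKM sums of the libraries ran from 845852 to 1249864. The highest row of each library took 6.17% to 41.5% of that library's sum, most of all in high dose replicate 2. The file held no read counts, so the depth behind a value is unknown and its precision rests on the spread over the 4 libraries of a group. Nothing in the labels says that the 4 libraries came from separate animals, so that spread may be technical. In a piece of lung, fewer cells of a type and less RNA per cell cannot be told apart. Whole-table calls were made with limma on log2(FPKM + 1) over 14418 genes with a mean of at least 1 FPKM, with an adjusted p under 0.05 (Benjamini-Hochberg) as the threshold. All 10 genes passed that filter.

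Most of these factors were lower in the high dose libraries, by modest amounts. The fitted log2 fold change was below 0 for 9 of the 10 genes, as for 42.8% of all tested genes, and above 0 for Klf5. Its median over the 10 was -0.35, against a median of 0.04 over all 14418 genes. The largest difference was in Klf13, whose mean was 28.2 FPKM in high dose and 49.1 FPKM in model. By the whole-table threshold 3 of the 10 were called, Klf3, Klf10 and Klf13, all lower, while 4.27% of all tested genes were called lower. By limma 0 were called higher and 0 were higher at an unadjusted p under 0.05, while 5.86% of all tested genes were called higher. The 4 high dose values lay below the 4 model values in 4 of the 10 (Klf3, Klf6, Klf7 and Klf13), as they did in 6.46% of all tested genes. Since the genes were chosen on this comparison, these counts describe the choice.

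**Figure D1:**
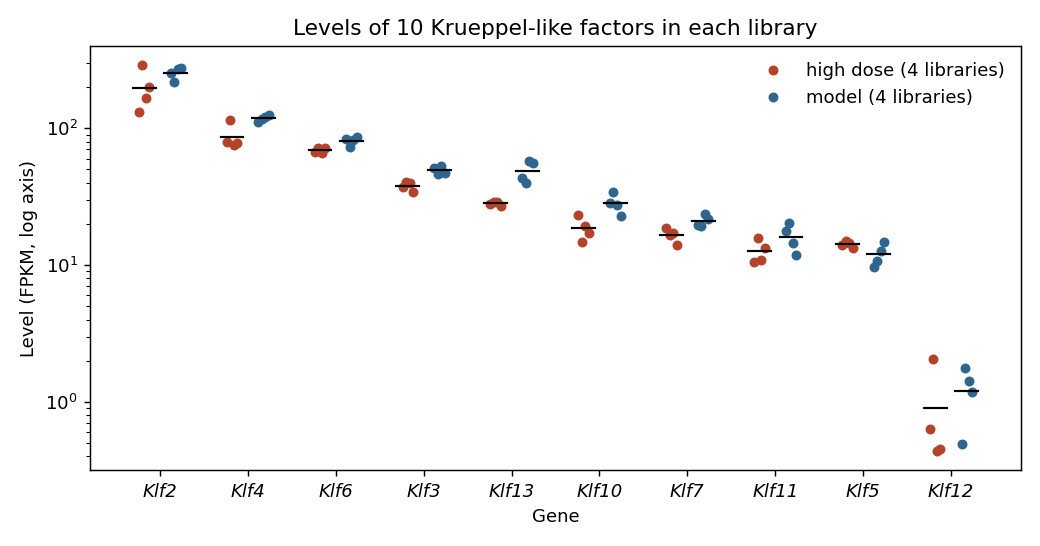
Level of each of the 10 factors in each library (y axis, FPKM on a log scale; x axis, genes by falling mean), with high dose in red on the left and model in blue on the right of each pair. Points are single libraries and the line is the mean of 4. Klf13 shows the widest gap between groups, and 1 high dose library lies apart in Klf4 and Klf12 and is the highest in Klf2.

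In FPKM, which allows levels of different genes to be set side by side, Klf2 was the most abundant of the 10 in both groups and Klf12 the least. The order by mean level in high dose was Klf2, Klf4, Klf6, Klf3, Klf13, Klf10, Klf7, Klf5, Klf11 and Klf12. In model it was the same except that Klf11 stood before Klf5. Ranges of neighbours overlapped in high dose from Klf10 through Klf7 and Klf5 to Klf11, and the remaining neighbours did not overlap. In model the ranges overlapped from Klf10 through Klf7 and Klf11 to Klf5, and also between Klf3 and Klf13, whose means of 49.3 and 49.1 FPKM were apart by less than either SD. The same 2 genes did not overlap in high dose, where Klf3 had a mean of 37.9 ± 2.87 FPKM and Klf13 of 28.2 ± 1.00 FPKM (SD, n = 4). The sum of the 10 levels was 411, 609.9, 439.6 and 470.1 FPKM in high dose replicates 1 to 4, against 617, 579, 666 and 659.5 FPKM in model replicates 1 to 4. Klf2 alone made up 32.2% to 47.4% of that sum in high dose and 37.7% to 41.6% in model.

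Klf2 and Klf4 are the factors of the resting vessel wall. Flow switches both on through a kinase cascade that ends in MEF2 factors, and Klf2 also keeps lymphocytes at rest and able to recirculate, while Klf4 also acts in macrophages and epithelium. Klf2 had 132, 289, 167 and 201 FPKM in high dose replicates 1 to 4, against 252, 218, 272 and 274 FPKM in model replicates 1 to 4. High dose replicate 2 held the highest of all 8 values while the other 3 high dose values lay below every model value, so the groups overlapped. The log2 fold change of Klf2 was -0.42 ± 0.22 (SE), and -0.62 without high dose replicate 2. Klf4 had 78.8, 115, 75.8 and 78.4 FPKM in high dose, against 111, 116, 121 and 125 FPKM in model. Its high dose replicate 2 again reached the model range and the other 3 lay far below it. The log2 fold change of Klf4 was -0.46 ± 0.14, which was not called, and -0.60 without high dose replicate 2, which was. In that fit without 1 library 3 of the 10 genes were called lower (Klf3, Klf4 and Klf13), with 2.84% of all tested genes called lower.

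Endothelial markers were read in the same libraries. By limma 0 of 7 endothelial markers were called, 2 had an unadjusted p under 0.05 and were higher, and their summed level was 894, 1173, 950.5 and 1023 FPKM in high dose replicates 1 to 4, against 984, 1071, 1088 and 839.7 FPKM in model replicates 1 to 4. Divided by that sum, a ratio formed after the values were seen, Klf4 stood at 88.1, 98.0, 79.8 and 76.7 FPKM per 1000 FPKM of endothelial markers in high dose and at 113, 108, 111 and 149 in model. The groups did not overlap on this ratio, high dose replicate 2 included. The marker sum was highest in that library and lowest in model replicate 4, and it holds Cdh5, a gene that the factors induce. The share of other genes that part on such a ratio was not computed, so the separation is a description only. For Klf2 the same ratio was 148, 247, 176 and 196 in high dose and 256, 204, 250.2 and 326 in model, and there high dose replicate 2 still overlapped the model range.

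Promoter windows of 8 of the 10 genes were found by symbol in the RefSeq table (GRCm38.p6, not the mm39 build that the submitters' processing notes name). Klf5 and the called gene Klf10 had no window there. The windows of 4 genes, the vessel pair and the called genes Klf3 and Klf13, are printed 5′ to 3′ on the strand of the gene. Each holds the 250 bases that end at the annotated start. Capitals mark the family's own binding core (CACCC or, on the other strand, GGGTG) and the MEF2 motif.
Klf2 (chr8:72318812-72319061, plus strand): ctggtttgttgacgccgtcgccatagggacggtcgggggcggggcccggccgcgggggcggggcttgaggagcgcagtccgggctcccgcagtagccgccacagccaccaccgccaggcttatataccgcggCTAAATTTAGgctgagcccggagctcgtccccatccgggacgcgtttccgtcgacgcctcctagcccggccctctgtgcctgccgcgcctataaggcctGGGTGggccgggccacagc
Klf4 (chr4:55532476-55532725, minus strand): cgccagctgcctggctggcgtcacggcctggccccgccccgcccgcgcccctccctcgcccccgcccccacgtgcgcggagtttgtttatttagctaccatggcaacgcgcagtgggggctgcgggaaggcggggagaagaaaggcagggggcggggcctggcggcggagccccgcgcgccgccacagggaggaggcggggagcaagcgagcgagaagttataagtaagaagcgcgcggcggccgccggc
Klf3 (chr5:64803271-64803520, plus strand): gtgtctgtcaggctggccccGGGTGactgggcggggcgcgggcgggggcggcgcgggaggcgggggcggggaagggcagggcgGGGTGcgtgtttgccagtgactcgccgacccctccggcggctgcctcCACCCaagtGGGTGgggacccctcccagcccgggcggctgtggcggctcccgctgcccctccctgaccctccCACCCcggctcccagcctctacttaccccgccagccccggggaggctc
Klf13 (chr7:63938916-63939165, minus strand): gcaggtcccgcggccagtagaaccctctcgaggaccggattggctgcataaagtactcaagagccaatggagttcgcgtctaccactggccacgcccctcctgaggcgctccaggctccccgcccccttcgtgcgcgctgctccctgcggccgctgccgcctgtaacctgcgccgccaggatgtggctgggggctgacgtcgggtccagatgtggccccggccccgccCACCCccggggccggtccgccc
The core stood in 5 of the 8 windows (Klf2, Klf3, Klf7, Klf12 and Klf13), and in 51.3% of 27025 promoters of the same length. Klf3 held 5 copies, Klf2 and Klf13 held 1 each, and Klf4 held none in this window. The GC box GGGCGG, searched on both strands, stood in 7 of the 8 and in 32.9% of all promoters. The MEF2 motif, which reads the same on both strands, stood in Klf2 alone of the 8, beginning 118 bases before the start, and in 3.01% of all promoters. TGACG, the core of the cyclic AMP response element, stood in Klf2, Klf4, Klf12 and Klf13 on either strand, and in 17.9% of all promoters. The full palindromic glucocorticoid response element was in none of the 8 and in 0.0037% of all promoters. It is thus too rare in such windows for its absence from the 8 to say anything about them. These matches describe letters only, and neither binding nor a cause was measured.

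Klf6, Klf7 and Klf5 mostly act as activators. Klf6 is an early response factor of injured epithelium and endothelium and of inflammatory macrophages. It had 67.4, 71.8, 65.8 and 71.7 FPKM in high dose, against 83.9, 72.5, 82.5 and 86.3 FPKM in model. The groups did not overlap, but model replicate 2 lay close to the high dose values. The log2 fold change of Klf6 was -0.23 ± 0.08 (SE), which was not called, and -0.28 without model replicate 2, which was. In that fit calls rose over the whole table, with 6.72% of all tested genes called lower, against 4.27% with all libraries. Klf7, known for axon growth and for holding back fat cell differentiation, had 18.7, 16.6, 17.3 and 14.1 FPKM in high dose, against 19.8, 19.4, 23.5 and 21.6 FPKM in model. The groups lay next to each other without overlap and the log2 fold change of -0.32 ± 0.10 was not called. Klf5, which drives proliferation of epithelium and is needed for maturation of the alveoli, was the 1 gene with the other sign. It had 14.1, 14.9, 14.5 and 13.4 FPKM in high dose, against 9.63, 10.7, 12.7 and 14.8 FPKM in model. Model replicates 1 to 3 lay below the high dose range and model replicate 4 within it, and the log2 fold change of 0.25 ± 0.12 was not called. The markers of alveolar epithelium had 1 of 7 members called higher and none lower, and 5 with an unadjusted p under 0.05 that were higher. The call, in Lamp3 (0.54 ± 0.15, adjusted p = 0.0497), was lost in 7 of the 8 fits with 1 library left out, all but that without model replicate 2 (adjusted p up to 0.126), and after quantile normalization and median centring. The part of these cells in the values of Klf5 was not tested.

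Klf3 and Klf12 are repressors that recruit the corepressor CtBP through a short peptide motif. Klf3, which acts in red cell, B cell and fat cell development, had 37.4, 40.5, 39.8 and 34.1 FPKM in high dose, against 51.3, 46.3, 52.7 and 46.9 FPKM in model. Every high dose value lay below every model value. Its log2 fold change was -0.37 ± 0.08 (SE), and the call was lost in 5 of the 8 fits without 1 library (high dose replicates 1, 3 and 4, model replicates 1 and 3), in which the fold change lay between -0.39 and -0.32. Klf12, first described as a repressor of the gene of AP-2alpha, was close to the floor of the filter. It had 0.639, 2.07, 0.438 and 0.450 FPKM in high dose, against 0.494, 1.76, 1.41 and 1.18 FPKM in model. High dose replicate 2 was the highest of the 8 and the groups overlapped widely, with a log2 fold change of -0.26 ± 0.28 (-0.52 without that library).

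Klf10, Klf11 and Klf13 share a short helix that binds the corepressor Sin3A. Klf10 and Klf11 were named for their early induction by TGF-beta, the growth factor that drives matrix production. Klf10 also represses the gene of the inhibitor Smad7. It had 23.2, 14.8, 19.3 and 17.1 FPKM in high dose, against 28.3, 34.3, 27.6 and 22.8 FPKM in model. Only high dose replicate 1 and model replicate 4 crossed, by a small margin. Its log2 fold change was -0.58 ± 0.15 (SE), and the call was lost in 6 of the 8 fits without 1 library (high dose replicates 2, 3 and 4, model replicates 1, 2 and 3), in which the fold change ran from -0.61 to -0.49. Klf11 had 10.6, 15.7, 10.9 and 13.3 FPKM in high dose, against 17.7, 20.3, 14.4 and 11.8 FPKM in model. Its groups overlapped through high dose replicates 2 and 4 and model replicates 3 and 4, and the log2 fold change of -0.31 ± 0.18 was not called.

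Klf13, an activator of the chemokine gene Ccl5 in T cells, had 28.0, 29.1, 28.8 and 26.9 FPKM in high dose, against 43.1, 39.9, 58.1 and 55.3 FPKM in model. The high dose values were nearly the same in all 4 libraries (28.2 ± 1.00 FPKM, SD) and the model values were spread more widely (49.1 ± 8.92 FPKM), with no overlap. Its log2 fold change was -0.76 ± 0.12 (SE), between -0.85 and -0.68 in the 8 fits without 1 library, and it was called in each of them. RefSeq places 10 other genes over 5 of the 10 members, and the labels do not say that strand was kept, so reads of such pairs cannot be told apart. The 8 of them that the table lists had group means of at most 3.17 FPKM. The highest was Gm27252, a long noncoding RNA gene over Klf13 that was named after its values were seen. It had 0.750, 0.876, 0.752 and 0.552 FPKM in high dose, against 2.30, 2.16, 4.66 and 3.55 FPKM in model. It was highest in the same 2 model libraries as Klf13, and its log2 fold change of -1.23 ± 0.19 passed the threshold (adjusted p = 0.00751, at most 0.0264 when 1 library was left out).

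**Figure D2:**
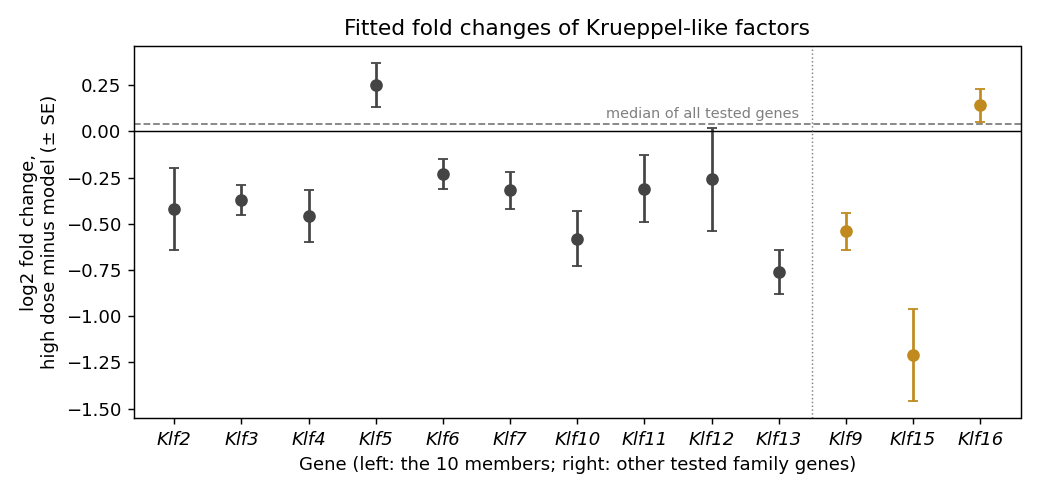
Fold change between high dose and model as fitted on log2(FPKM + 1) values (y axis, positive where high dose is higher, bars are SE, 4 libraries a group) of the 10 factors on the left and of the 3 other family genes that passed the filter on the right. The dashed line is the median of all 14418 tested genes, 0.04; Klf5 and Klf16 lie above it and the other 11 below.

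Within the groups the 10 genes varied in different ways from library to library. After each group's mean was taken off, the 45 pairs of members had Pearson correlations of log2(FPKM + 1) from -0.881 (Klf2 with Klf10) to 0.852 (Klf4 with Klf12) over the 8 libraries, with a median of 0.19 and 32 pairs above 0. Klf2 and Klf4 had 0.825, Klf5 and Klf13 had 0.827, and Klf6 and Klf10 had -0.807. These values share libraries and their scaling and carry no test. They rest on 8 points, not all of them free once both group means are taken off. They were not recomputed without high dose replicate 2, which stood apart in Klf4 and Klf12. High dose replicate 2 held the highest value of its group for 8 of the 10 genes and the lowest for Klf10. That library also had the highest summed level of 12 immediate early genes of its group, at 1418 FPKM against 527 to 1141 FPKM in the other 3. Its 4 markers of red cells summed to 20085 FPKM against 4849.5 to 8418 FPKM in those 3. The part of either in the values of the 10 genes was not tested.

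**Figure D3:**
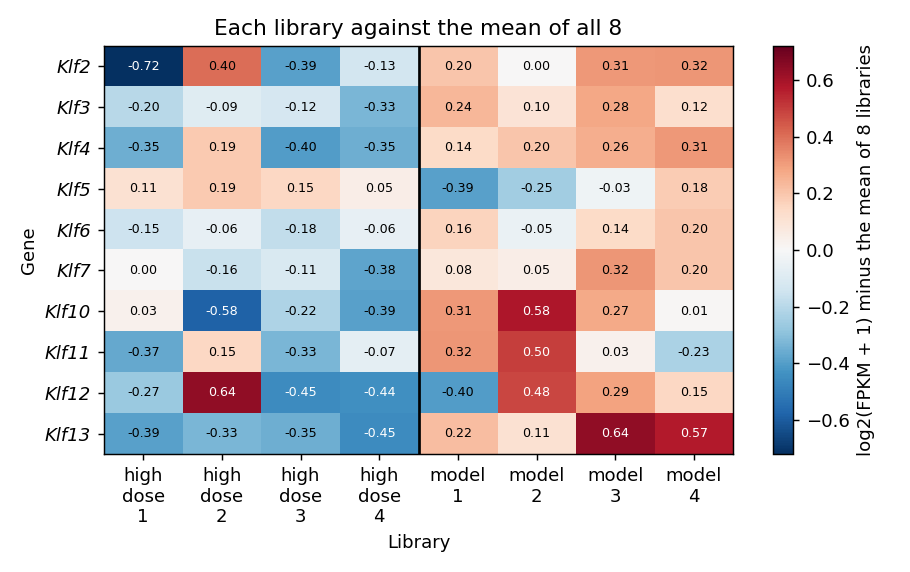
Deviation of each library (columns, high dose left and model right of the line) from the mean of all 8 libraries for each of the 10 factors (rows), on the log2(FPKM + 1) scale, with blue below and red above the mean. Klf13 and Klf3 are below it in all 4 high dose libraries and above it in all 4 model libraries, while high dose replicate 2 is red for Klf2, Klf4, Klf5, Klf11 and Klf12.

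Among 10027 genes with a mean of at least 5 FPKM, the gene whose deviations from the group means were most like those of Klf2 over the 8 libraries was Sun2 (Pearson correlation 0.973). By the same measure it was Ston1 for Klf3 (0.995), Arap1 for Klf4 (0.966), Mt1 for Klf5 (0.985) and Tifa for Klf6 (0.953). It was Clip2 for Klf7 (0.977), Hhip for Klf10 (0.986), Bik for Klf11 (0.989), Dgcr2 for Klf12 (0.970) and Mocs1 for Klf13 (0.985). No gene came up for more than 1 member. Each of these is the highest of all genes compared over 8 libraries, and the names are a description only.

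Of the 7 family genes outside the list, 3 passed the filter. Klf9, which had 37.6, 46.7, 42.6 and 43.3 FPKM in high dose against 58.0, 67.5, 68.2 and 55.4 FPKM in model, fell by 0.54 ± 0.10 (SE, adjusted p = 0.0145). Klf15, a regulator of amino acid and glucose metabolism, had 5.82, 14.4, 11.8 and 12.1 FPKM in high dose against 21.0, 29.0, 31.8 and 22.4 FPKM in model. It fell by 1.21 ± 0.25 (adjusted p = 0.0208, and 0.0625 without model replicate 3). Klf16 had a log2 fold change of 0.14 ± 0.09 (adjusted p = 0.345). Klf8 had a mean of 0.753 FPKM in high dose and 0.833 FPKM in model, and Klf1, the red cell factor, had 0.225 FPKM in high dose and 0.170 FPKM in model. Klf14 was listed at 0 in 6 of the 8 libraries, 3 in each group, and Klf17 in 6, with 2 of them in high dose and 4 in model. The log2 fold changes of Klf10 (-0.58) and Klf13 (-0.76) thus lay between those of Klf9 and Klf15. Those of all other members lay outside that span, from -0.46 (Klf4) to 0.25 (Klf5). Of 9 known glucocorticoid targets, Klf9 and Klf15 among them, 6 fell and none rose, with a median of -1.11. Of the 6, Per1 (-0.64 ± 0.17, adjusted p = 0.0463) had overlapping groups and lost its call in 6 of the 8 fits with 1 library left out (high dose replicates 1, 3 and 4, model replicates 1, 3 and 4; adjusted p up to 0.122). The smallest p-values outside the family belonged to Zbtb16 (-1.54 ± 0.13, adjusted p = 0.00144), Tsc22d3 (-1.11 ± 0.18, adjusted p = 0.00789) and Fkbp5 (-2.28 ± 0.40, adjusted p = 0.0139). Whether glucocorticoids act on the 10 genes was not tested.

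The related Sp factors bind the same GC-rich DNA. Of 6 tested, 1 rose and none fell (at an unadjusted p under 0.05, 2 were higher and 0 lower), with a median of -0.05. The riser was Sp5, with 2.60, 1.49, 2.09 and 2.44 FPKM in high dose against 1.27, 1.08, 0.724 and 0.432 FPKM in model (0.76 ± 0.18, adjusted p = 0.0312). When 1 library was left out, 5 of the 8 fits no longer called it (high dose replicates 1, 3 and 4, model replicates 3 and 4; adjusted p up to 0.0862).

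The genes around the 10 factors were taken from lists drawn up with earlier results of these data known. Of 12 genes of the flow pathway above Klf2 and Klf4, limma called 0, and 0 had an unadjusted p under 0.05. The most abundant of them were Heg1 (0.48 ± 0.39, adjusted p = 0.493) and Pdcd10 (-0.16 ± 0.09, adjusted p = 0.316). Of 13 corepressors and cofactors, among them Ctbp1 (0.18 ± 0.08, adjusted p = 0.181) and Hdac1 (0.08 ± 0.08, adjusted p = 0.586), it called 0, with 3 at an unadjusted p under 0.05. Of 7 genes of the TGF-beta loop that contains Klf10, 1 rose, the receptor Tgfbr2 (0.57 ± 0.14, adjusted p = 0.0344). With 1 library left out, 6 of the 8 fits no longer called Tgfbr2 (high dose replicates 1, 3 and 4, model replicates 1, 2 and 4; adjusted p up to 0.0983). Quantile normalization ended that call too. Of 12 immediate early genes, which like Klf2, Klf4, Klf6 and Klf10 respond within minutes to growth factors, 2 rose and none fell, with a median of 0.59. Egr2 rose by 1.35 ± 0.21 (adjusted p = 0.00715). Egr1 rose by 1.83 ± 0.47 (adjusted p = 0.0460), a call that ended after median centring and in 6 of the 8 fits with 1 library left out (high dose replicates 2, 3 and 4, model replicates 1, 2 and 4; adjusted p up to 0.114). Of 4 cell cycle inhibitors Cdkn2b alone rose (0.89 ± 0.17, adjusted p = 0.0143).

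The known targets of Klf2 and Klf4 were read beside the levels of the factors. Both lymphocyte targets of Klf2 given here fell. S1pr1, a receptor that lets lymphocytes leave tissue and is also high in endothelium, had 81.7, 96.8, 103 and 88.2 FPKM in high dose against 126, 106, 139.9 and 136 FPKM in model (-0.45 ± 0.12, adjusted p = 0.0389). Itgb7, an integrin gene of lymphocyte homing to the gut, had 14.0, 17.6, 17.7 and 19.8 FPKM in high dose against 30.2, 20.0, 45.9 and 44.1 FPKM in model (-0.92 ± 0.25, adjusted p = 0.0482). Of 5 tested genes that the factors induce in endothelium, 2 fell and none rose: S1pr1 and Nos3, the endothelial nitric oxide synthase, which had 6.90, 7.31, 6.78 and 5.93 FPKM in high dose against 8.32, 8.82, 10.8 and 8.89 FPKM in model (-0.40 ± 0.10, adjusted p = 0.0407). Cdh5, the cadherin of endothelial junctions, had the other sign at an unadjusted p under 0.05 and did not pass (0.29 ± 0.13, adjusted p = 0.189). S1pr1, Itgb7 and Nos3 each lost their call in 7 of the 8 fits with 1 library left out, all but that without model replicate 2, with adjusted p up to 0.118. Of 6 tested genes that the factors repress there, 1 rose and none fell: Edn1, which encodes the vasoconstrictor endothelin, had 19.4, 16.2, 14.2 and 16.1 FPKM in high dose against 10.2, 10.2, 5.13 and 6.71 FPKM in model (0.98 ± 0.20, adjusted p = 0.0192, and up to 0.0525 without high dose replicate 1 or 4). The median log2 fold change was -0.21 for the induced endothelial list and 0.40 for the repressed one.

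**Figure D4:**
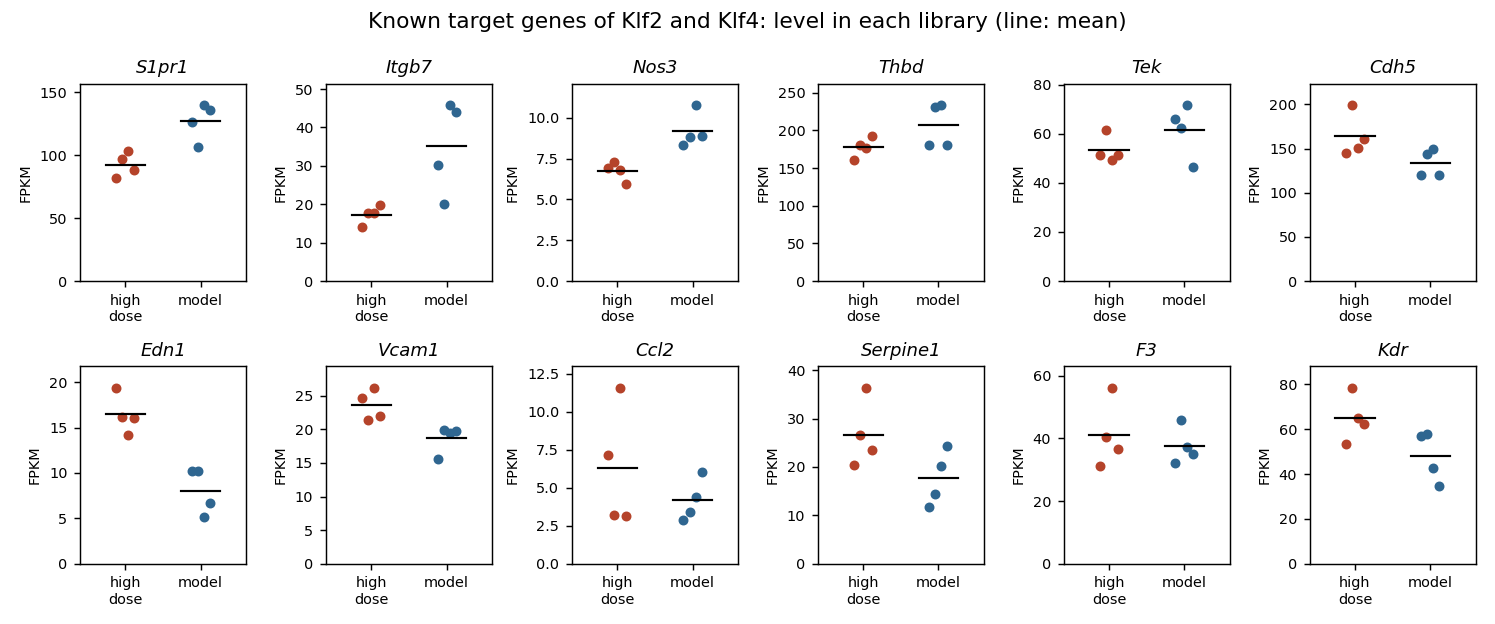
Level (y axis, FPKM from 0) of 12 tested target genes of Klf2 and Klf4 in each library, high dose in red on the left and model in blue on the right, with the mean as a line. The first 2 panels are lymphocyte targets, the next 4 are genes induced in endothelium and the last 6 are genes repressed there; S1pr1, Itgb7 and Nos3 lie lower in all 4 high dose libraries, and Edn1 and Vcam1 higher (Vcam1 was not called, adjusted p = 0.088).

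Markers of some other cell types differed in the same libraries. All 6 neutrophil markers fell (Ly6g not without model replicate 3, adjusted p = 0.0509), with summed levels of 104 to 380.4 FPKM in high dose and 973 to 2515 FPKM in model. Of 6 lymphocyte and natural killer markers 1 fell, Nkg7, while 2 were lower and 2 higher at an unadjusted p under 0.05. Their sum was 77.9 to 116 FPKM in high dose and 87.0 to 127 FPKM in model. Of 5 macrophage markers limma called 0, with 1 lower and 1 higher at an unadjusted p under 0.05. Among 5 airway epithelial, 5 smooth muscle and 3 tested red cell markers it called 0, and 0 had an unadjusted p under 0.05. Of 7 fibroblast markers limma called 0, all 7 had a log2 fold change above 0 and 4 were higher at an unadjusted p under 0.05, with a summed level of 498 to 673 FPKM in high dose and 221 to 534 FPKM in model. Without model replicate 4 the collagen genes Col1a1, Col1a2 and Col3a1 of that list were called higher (adjusted p of 0.0181 to 0.0213). Col1a2 lay at the threshold in the main fit (1.28 ± 0.34, adjusted p = 0.05). It was also called after quantile normalization, without the variance trend, with a minimum of 5 FPKM, with either other pseudocount and with unnamed rows added. It was not called after median centring, and Col1a1 and Col3a1 were called in none of these. The part of these cells in the levels of the 10 factors and of the targets was not tested.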

How the data were processed

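RNA of 8 mouse libraries was purified with an RNeasy kit and made into SMARTER mRNA libraries, per the labels' protocols. The authors deposited 1 table of FPKM values with 48632 rows and 1 column per library. No unit stands in the file's header. Column sums that differed between libraries, from 845852 to 1249864, pointed to FPKM. Per the submitters' processing notes the reads were placed on mm39, and the aligner, the counting tool and the annotation are not given in the sources used here. No count model was possible and depth is unknown.

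Values were summed per gene name (7015 rows had none and were left out), kept where their mean reached 1 FPKM, and fitted as log2(FPKM + 1) by limma 3.58.1 (R 4.3.3) on group alone, with trended and robust variances and two-sided p-values adjusted (Benjamini-Hochberg) over 14418 genes. The rows without a gene name held 50% to 65.2% of a library's FPKM sum, most of all in high dose replicate 2. Fold changes are high dose minus model and understate those of low genes. The members and the 20 other lists, 9 of them cell type markers, were chosen with earlier results of these data known. All members and all family genes are named, and from each of the other lists that hold no cell type markers up to 4 genes with the smallest p among those that passed or, where none passed, up to 2 with the highest mean. A further gene that this rule took is not reported here. Lamp3, Per1, Cdh5, Vcam1, Ly6g, Nkg7 and the collagen genes were named after their values were seen.

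The fit was tested on simulated data with 200 of 14418 genes changed. It recovered 20.9% of those changed by 0.5 on the log2 scale, 68.7% at 1 and 92.4% at 2, with 9 false calls. The real fit called 845 genes higher and 616 lower, more than were changed in the simulation. Its adjusted threshold was therefore easier to pass, so these shares cannot be read as those of the real fit. Of the member differences, 8 were under 0.5 in size. Motifs were searched in RefSeq promoters of GRCm38.p6. Figures were drawn with matplotlib 3.10.9.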

Additional observations from a re-analysis of the deposited data

Results flagged for a closer look

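In 3 of the 66 groups of 4 values examined, 1 library stood far from the other 3 (its gap to the nearest exceeded Dixon's critical share of the whole range, as chance gives in about 1 of 20 groups). Klf4 had 115 FPKM in high dose replicate 2, against 75.8 to 78.8 FPKM in the other high dose libraries. Klf12 had 2.07 FPKM in the same library, against 0.438 to 0.639 FPKM in the others. Heg1, a receptor of the flow pathway above Klf2 and Klf4, had 19.4 FPKM in high dose replicate 1, against 41.8 to 45.4 FPKM in the other 3.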

How the results depend on the processing

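Alternatives were quantile normalization, median centring, no variance trend, no filter, a minimum of 5 FPKM, pseudocounts of 0.1 and 0.01, a replicate block, each library left out and, chosen after seeing the data, rows without a gene name added. None of the 490 fold changes recomputed for the 10 factors and 19 named genes changed sign. Of these, 418 kept their side of the threshold, 70 lost a call and 2 gained one (Klf4 without high dose replicate 2, Klf6 without model replicate 2). With no filter, which tests more genes, 518 genes were called higher, against 845, and 438 lower (1.47% of those tested), against 616 (4.27%). In that fit 1 of the 10 factors (Klf13) was called lower, against 3. With the replicate block 486 genes were called higher and 469 lower (3.25%), with 1 of the 10 factors lower, again Klf13. The labels do not say that the replicate numbers pair libraries, and the deviations of same-numbered libraries correlated at 0.154, 0.276, -0.068 and -0.0923, so the block was not used elsewhere. Leaving out 1 library gave 364 to 1176 genes higher, 336 to 969 lower, and 1 to 3 of the 10 factors lower. Of the 10 factors Klf13 alone was called in all 17 alternatives; Klf10 also lost its call without the variance trend. The median of all genes moved by less than 0.05 under each scaling. Depth limits are unknown without counts.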
